A study of Mus musculus with 12 samples.

Results

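The comparison is between 2 CALM-AF10 fusion proteins carried by retrovirus into mouse bone marrow cells: a shortened fusion labelled CALM(400-648)+AF10 (677-758), called the minimal fusion here, and the fusion labelled CALM-AF10, which carries no deletion. Samples were chosen by these titles alone, giving 3 arrays of each construct, 6 of the series' 12. Of the array's 35556 probe sets, 21789 carried exactly 1 gene symbol (19938 genes) and are described, and a further 1621 with several symbols entered the same test. The remaining 6 arrays, 3 of the empty vector MIG and 3 of CALM-AF10 with the part named OM-LZ deleted (ΔOM-LZ), gave reference levels and a shared estimate of the spread. The numbers in the label of the minimal fusion name the stretches kept, 400 to 648 of CALM and 677 to 758 of AF10. The labels do not say how the stretches are joined, nor how much protein each construct made.

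Every group held GFP+ marrow cells of adult mice of the strain C57/BL6/C3H that had been given 5-fluorouracil, a drug that kills dividing cells and leaves stem and early progenitor cells enriched. Marrow was prestimulated for 48 h, laid over irradiated (40 Gy) GFP+E86 virus-producing cells with cytokines and protamine sulfate (5 µg/ml), and sorted for GFP, with RNA taken 96 h after transduction. The cells were therefore a short-term mixed culture, with each fusion driven from a retroviral vector and not from its own locus, and the labels call the 3 samples of a construct biological replicates without saying whether animals were pooled. Values are the deposited log2 intensities, so that a difference of 1 is a 2-fold difference in signal. Array medians over all probe sets lay between 6.58 and 6.69.

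CALM (gene Picalm) is an adaptor of clathrin-coated pits, and AF10 (gene Mllt10) is a chromatin protein whose octapeptide motif and leucine zipper, the OM-LZ, binds the histone methyltransferase DOT1L. Fused in acute leukaemias, the 2 proteins are known to bring DOT1L activity to the HOXA cluster, whose homeobox transcription factor genes sit side by side and are active in blood stem and progenitor cells and switched off as these cells mature. The AF10 stretch of the minimal fusion is the one known to hold the OM-LZ. What it lacks against CALM-AF10 is therefore the rest of both partners, and the comparison asks which genes read differently once those parts are gone.

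A blood-cell gene and a primary granule gene, both singled out after their values were seen, read high under both fusions. Ptprc, which encodes the blood-cell surface protein CD45, read 10.53, 10.25 and 10.13 in the minimal fusion arrays and 10.40, 10.01 and 10.52 in the CALM-AF10 arrays. Mpo, the myeloperoxidase of primary granules, read 12.69, 13.30 and 13.18 against 12.59, 13.37 and 13.09. Some genes of late neutrophils and of mast cells were bright too, such as Ngp (means 11.29 and 11.65) and Cpa3 (12.30 and 12.80). Other genes of those lists were dim. The cultures are therefore not shown to be of 1 cell type or stage. Summarized per array as the mean of each gene's log2 value minus its 12-array mean (the list score used throughout), fibroblast and producer-line genes scored −0.14 to 0.05 under the minimal fusion and −0.06 to 0.01 under CALM-AF10, ranges that overlapped. Picalm has no probe set under its symbol and was not analysed here. Mllt10 read 10.56, 10.21 and 10.31 against 10.39, 10.16 and 10.41, a difference of 0.04 (95% interval −0.23 to 0.31), and MIG averaged 10.48. Whether that probe set can read the AF10 stretch of either fusion was not tested.

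Hoxa9, a homeobox factor that keeps myeloid progenitors renewing and is a driver of many leukaemias, was the gene that passed the test. It read 9.94, 10.09 and 10.13 on the 3 minimal fusion arrays and 9.03, 8.94 and 8.95 on the 3 CALM-AF10 arrays. No minimal fusion array came near the CALM-AF10 range, and the spread within each group (SD 0.10 and 0.05) was small beside the gap. Hoxa9 rose by 1.08 ± 0.11 (log2 difference ± SE, 95% interval 0.85 to 1.32, a 2.12-fold higher signal), with an adjusted p of 0.0161 in limma, Benjamini-Hochberg over 23410 probe sets. It was the only 1 of those 23410 to pass at 0.05 (0.00427%), and no probe set passed in the lower direction, while 422 (1.80%) had an unadjusted p under 0.05, 141 of them higher (0.602%) and 281 lower (1.20%).

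The size of the Hoxa9 difference was steadier than its call. Leaving out 1 array at a time kept the log2 difference between 1.05 and 1.14, but the adjusted p in limma rose to 0.114, 0.153 and 0.173 without CALM-AF10 replicate 1, 2 or 3 and to 0.0599, 0.17 and 0.167 without minimal fusion replicate 1, 2 or 3. It was 0.0575 without ΔOM-LZ replicate 3 and 0.274 with only the 6 compared arrays in the fit. With the replicate number as a block it was 0.0767 over 12 arrays and 0.238 over the 6. With 3 arrays a group, an exact permutation test of any single gene cannot go below p = 0.1.

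The HOXA genes share one stretch of mouse chromosome 6, on the minus strand, and the promoters of 4 of them are shown because the result turns on how far the difference runs along that stretch: Hoxa9, Hoxa10 and Hoxa5, which with Hoxa6 had log2 differences above 1, and Hoxa13 at the far end with a difference of 0.05. The Hoxa13 signal was low under both fusions (means 5.48 and 5.44). Each sequence is the 250 bases before the annotated start (RefSeq, GRCm38.p6), with CG dinucleotides in capitals. They lie at chr6:52227371-52227620, chr6:52240855-52241104, chr6:52204588-52204837 and chr6:52260881-52261130, in that order.
Hoxa9: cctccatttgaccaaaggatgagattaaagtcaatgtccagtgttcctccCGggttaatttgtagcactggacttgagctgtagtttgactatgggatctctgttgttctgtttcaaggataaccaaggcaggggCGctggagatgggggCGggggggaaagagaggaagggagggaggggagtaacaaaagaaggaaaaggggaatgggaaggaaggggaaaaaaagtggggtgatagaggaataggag
Hoxa10: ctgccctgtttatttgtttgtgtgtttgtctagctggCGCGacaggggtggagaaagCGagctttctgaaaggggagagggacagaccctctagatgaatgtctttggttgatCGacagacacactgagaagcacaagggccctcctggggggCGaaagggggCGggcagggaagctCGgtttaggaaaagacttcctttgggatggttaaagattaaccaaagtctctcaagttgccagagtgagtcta
Hoxa5: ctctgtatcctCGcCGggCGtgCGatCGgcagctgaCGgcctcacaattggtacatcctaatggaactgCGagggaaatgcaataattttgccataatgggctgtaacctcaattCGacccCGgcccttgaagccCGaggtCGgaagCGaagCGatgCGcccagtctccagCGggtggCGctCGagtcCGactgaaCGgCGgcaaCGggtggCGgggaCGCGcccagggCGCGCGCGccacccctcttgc
Hoxa13: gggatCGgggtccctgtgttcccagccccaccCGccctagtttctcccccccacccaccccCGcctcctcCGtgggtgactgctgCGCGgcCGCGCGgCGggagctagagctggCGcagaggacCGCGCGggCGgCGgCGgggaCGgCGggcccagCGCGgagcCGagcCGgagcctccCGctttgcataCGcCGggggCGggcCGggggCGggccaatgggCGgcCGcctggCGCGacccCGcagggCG
The Hoxa9 window holds 3 CG dinucleotides, the Hoxa10 window 7, the Hoxa5 window 28 and the Hoxa13 window 35, beside a median of 6 over 32851 annotated promoter windows of the same length, of which 37.8% hold 10 or more. The Hoxa6 window holds 24, so the 4 genes with a difference above 1 include windows poor and rich in CG, and the other annotated start of Hoxa10 has 20. Neither the letters TGATNNAT, a paired PBX and HOX site found in 7.68% of all windows, nor TGACAG, a MEIS site found in 15.9%, occurs on either strand of these 4, with the 2 motifs counted separately and overlaps allowed. Of the windows not shown, that of Hoxa2 holds 1 match to each motif and that of Hoxa3 holds 1 match to TGACAG, and those of Hoxa6, Hoxa7 and Hoxa11 hold neither.

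Between Hoxa9 and Hoxa10 lies Mir196b (chr6:52230081-52230165, GRCm38.p6), the gene of a microRNA known to act on HOX transcripts. Its mature forms in RefSeq are shown with the seed, bases 2 to 8, in capitals, since the seed sets which transcripts pair with it.
mmu-miR-196b-5p: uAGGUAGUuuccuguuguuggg
mmu-miR-196b-3p: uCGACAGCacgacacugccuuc
How far its probe set reads the mature microRNA or the longer RNA of the gene was not tested. The probe set stood at 7.10, 6.41 and 6.88 under the minimal fusion and at 6.40, 5.76 and 5.90 under CALM-AF10. The lowest minimal fusion array and the highest CALM-AF10 array nearly met, the log2 difference was 0.77 ± 0.22 (SE), and the adjusted p in limma was 1. This gene was singled out after its values were seen.

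All 10 HOXA genes on the array had a higher mean under the minimal fusion, with a median log2 difference of 0.73. Over all 19938 genes, each by its brightest probe set, 47.7% had a higher mean and the median was −0.01. In 7 of the 10, Hoxa2, Hoxa3, Hoxa5, Hoxa6, Hoxa7, Hoxa9 and Hoxa10, every minimal fusion array lay above every CALM-AF10 array, which held for 427 of all genes (2.14%). Counted over probe sets, the 2 groups did not overlap for 1259 of 23410 (5.38%), 482 of them higher (2.06%) and 777 lower (3.32%). Of the 10, Hoxa9 was the 1 called. Without CALM-AF10 replicate 1 or minimal fusion replicate 3, 1 of the 10 had a lower mean, Hoxa13, and leaving out any 1 of the 6 arrays gave medians from 0.57 to 0.88.

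Hoxa10, which like Hoxa9 belongs to the back end of the cluster and acts in early myeloid cells, came nearest to the threshold after Hoxa9. It read 8.02, 8.24 and 7.87 against 7.04, 6.66 and 6.92 under CALM-AF10, a gap of 0.83 between the closest arrays. The log2 difference was 1.17 ± 0.15 (SE, 2.25-fold), with an adjusted p of 0.113 in limma. The CALM-AF10 mean of 6.87 lay beside that of MIG, 6.86, and for Hoxa10 the minimal fusion arrays were the ones that stood apart.

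Hoxa6 and Hoxa5 are neighbours in the middle of the cluster. Hoxa6 read 8.58, 9.04 and 8.79 against 7.90, 7.46 and 7.77, a log2 difference of 1.09 ± 0.16 (SE) with an adjusted p of 0.283 in limma. Hoxa5 read 7.97, 8.19 and 8.07 against 7.17, 6.34 and 7.10, a difference of 1.21 ± 0.20 (SE) with an adjusted p of 0.469. The 3 minimal fusion arrays agreed closely on Hoxa5 (SD 0.11), while under CALM-AF10 replicate 2 lay well below the other 2 (SD 0.46), and without that array the difference was 0.94.

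Toward the front of the cluster, Hoxa2, Hoxa3 and Hoxa4 differed by less than Hoxa5 and Hoxa6, but without a steady gradient. Hoxa3 read 6.39, 6.71 and 7.02 against 5.86, 5.63 and 6.07, a log2 difference of 0.85 ± 0.16 (SE) with an adjusted p of 0.608 in limma. Hoxa2 read 5.98, 5.71 and 5.99 against 5.57, 5.42 and 5.65, a difference of 0.35 ± 0.11 (SE). Hoxa4, which lies between Hoxa3 and Hoxa5, read 7.71, 7.78 and 8.17 against 7.51, 7.86 and 7.49, so its groups overlapped and its interval, −0.11 to 0.64, held 0. As annotated, the Hoxa3 gene (chr6:52169059-52213067) spans Hoxa4, Hoxa5 and Hoxa6, and probe positions were not used here, so signal that these genes share cannot be told apart.

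Hoxa7, between Hoxa6 and Hoxa9, read 9.43, 9.69 and 9.36 under the minimal fusion and 8.91, 8.47 and 9.25 under CALM-AF10. Its groups were separated by 0.10 only, the log2 difference was 0.62 ± 0.26 (SE), and the adjusted p in limma was 1. At the far end, Hoxa11 differed by 0.21 (95% interval −0.12 to 0.53) and Hoxa13 by 0.05 (−0.23 to 0.32), and their groups overlapped. Both read low, with means of 4.82 against 4.62 for Hoxa11 and 5.48 against 5.44 for Hoxa13. These genes and Hoxa2 lay below the array medians of 6.58 to 6.69 on every array. Whether probe sets this dim can show a difference was not tested. Without minimal fusion replicate 3 the Hoxa13 difference was −0.04. The differences were thus 0.85 or more for Hoxa3, Hoxa5, Hoxa6, Hoxa9 and Hoxa10 and 0.35 or less for Hoxa2, Hoxa4, Hoxa11 and Hoxa13.

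**Figure D1:**
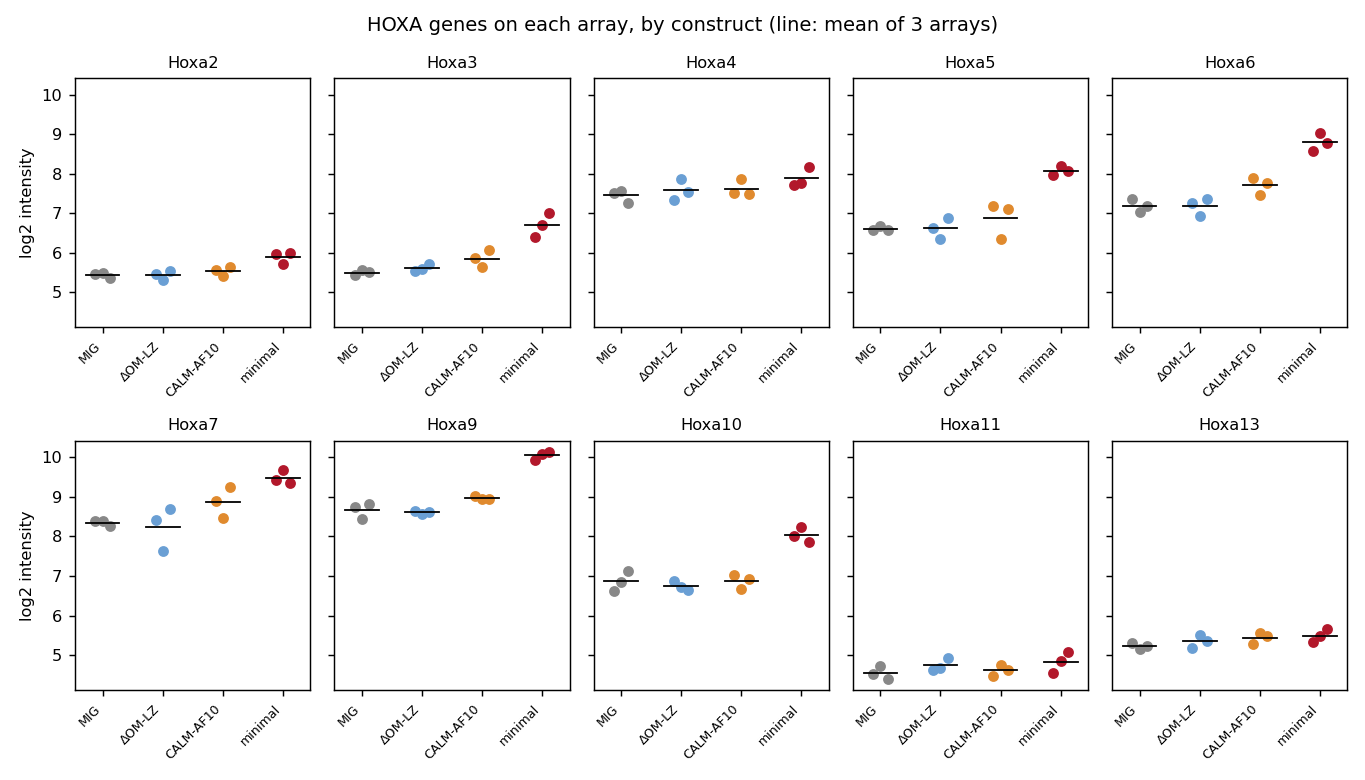
Log2 intensity of 10 HOXA genes on each of the 12 arrays, by construct, with 1 point per array and a line at the mean of 3, all panels on a shared vertical axis. The minimal fusion points lie above all other points for 7 genes, and the 3 exceptions are Hoxa4, Hoxa11 and Hoxa13.

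The levels under CALM-AF10 lay between those of the minimal fusion and those of the empty vector for most of the cluster. The minimal fusion had the highest mean of the 4 constructs for 10 of 10 HOXA genes. CALM-AF10 had the second highest for 9, with Hoxa11 the exception. For 7 of 10 the minimal fusion arrays lay above all 9 others. How many of all genes show these orders was not counted. Set against MIG in the same fit, Hoxa9 stood at 1.39 under the minimal fusion and 0.30 under CALM-AF10 (log2 differences, adjusted p in limma 0.00132 and 0.833). Hoxa6 stood at 1.61 and 0.52 (0.0111 and 0.767), and Hoxa10 at 1.18 and 0.01 (0.0383 and 1). These pairs of values share the MIG arrays, and their difference is the comparison given above.

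Genes on either side of the cluster differed little between the fusions. Of 9 flanking genes, 5 had a higher and 4 a lower mean under the minimal fusion, with a median log2 difference of 0.04, and none was called. Skap2, a signalling adaptor next to Hoxa2's end of the cluster, was the 1 of 9 whose groups did not overlap (2.14% of all genes on the higher side), at 9.77, 10.10 and 10.08 against 9.45, 9.65 and 9.74 (difference 0.37 ± 0.16 SE, adjusted p in limma 1). On the other side Hibadh, a valine-breakdown enzyme, differed by −0.22 (95% interval −0.58 to 0.15). The 27 genes measured in the HOXB, HOXC and HOXD clusters ran from −0.09 to 0.21 with a median of 0.04, and Hoxd10 was the 1 of 27 whose groups did not overlap, a share near the 2.14% of all genes on that side.

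**Figure D2:**
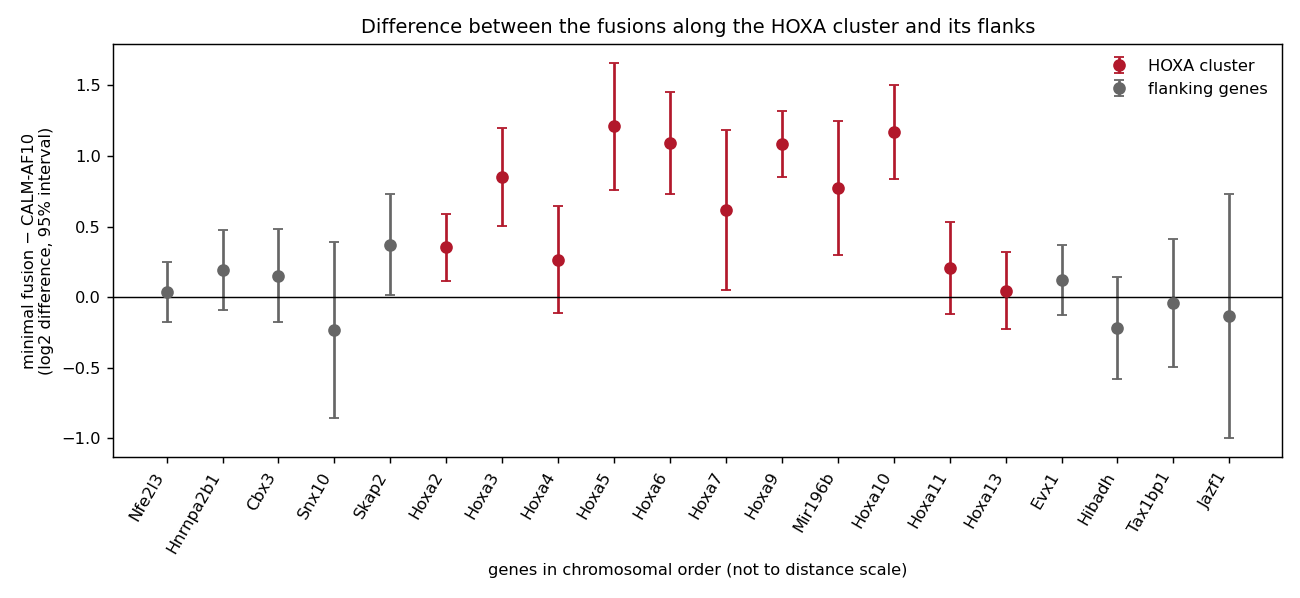
Log2 difference between the minimal fusion and CALM-AF10 (points, with 95% intervals) for HOXA genes, Mir196b and flanking genes in chromosomal order, not to distance scale. Intervals lie above 0 for Hoxa2, Hoxa3, Hoxa5, Hoxa6, Hoxa7, Hoxa9, Mir196b and Hoxa10, and also for Skap2 among the flanking genes.

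HOX proteins bind DNA with partners of the MEIS, PBX and PREP (Pknox) families, and none of these was called. Of 8 cofactor genes measured, 2 had a higher and 6 a lower mean under the minimal fusion, the median difference was −0.06 and no groups separated. Meis1, the partner most tied to Hoxa9 in leukaemia, read 10.93, 10.54 and 10.66 against 10.69, 9.31 and 10.11. The minimal fusion arrays were tight and the CALM-AF10 arrays wide (SD 0.20 and 0.69), so a mean difference of 0.67 came with an interval of −0.23 to 1.56 that reaches from a slightly lower to a 2.95-fold higher level. Without CALM-AF10 replicate 2 it was 0.30. The remaining 7 differed by no more than 0.22, with Pknox1 the highest at 0.22 and Pbx3 the lowest at −0.09, and the signs of Pbx2, Pbx3, Pbx4 and Pknox2 turned without 1 or another array.

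The other genes that stood furthest above their CALM-AF10 levels included regulators known from stem cells and leukaemia. The 10 largest higher differences among genes whose groups did not overlap and whose unadjusted p was under 0.01 (41 probe sets, 0.175% of those tested) were Eya1, Mecom, Chad, Hoxa5, Hoxa10, Hoxa6, Hoxa9, Cd7, Skida1 and Nkx2-3. The rule itself placed the minimal fusion arrays above the CALM-AF10 arrays. In all 10 they also lay above every MIG and ΔOM-LZ array. How many of all genes do so was not counted. Apart from Hoxa9 none was called.

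Eya1, a transcriptional coactivator of organ development, had the highest difference among the named probe sets, 2.05 ± 0.42 (log2 ± SE, 4.16-fold). It read 9.206, 8.852 and 9.004 under the minimal fusion and 7.602, 6.004 and 7.291 under CALM-AF10. CALM-AF10 was about as low as MIG and more scattered (means 6.97 and 7.08, SD 0.85 and 0.57), and the adjusted p in limma was 0.832. Without CALM-AF10 replicate 2 the difference was 1.57.

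Mecom encodes EVI1, a zinc finger factor of stem cell maintenance and of aggressive myeloid leukaemia, and was read by 2 probe sets. The brighter read 8.81, 8.67 and 8.13 against 7.26, 6.19 and 7.02, a log2 difference of 1.71 ± 0.38 (SE) with an adjusted p of 1 in limma. The dimmer read 6.83, 6.52 and 6.72 against 5.80, 5.34 and 5.89, a smaller but tighter difference of 1.01 ± 0.16 (SE) with an adjusted p of 0.283. Their groups were separated in both probe sets, and in both the lowest array was CALM-AF10 replicate 2. Its relative Prdm16 read 6.62, 6.39 and 6.68 against 6.53, 6.53 and 6.75, a difference of −0.04 (95% interval −0.26 to 0.18), and the sign turned without minimal fusion replicate 2.

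Nkx2-3, a homeobox gene of gut and spleen vessels that is also read in some leukaemias, stood at 7.98, 7.73 and 8.21 against 7.21, 7.04 and 7.07. The CALM-AF10 arrays were tight (SD 0.09) and 0.24 above MIG, and the difference between the fusions was 0.87 ± 0.15 (log2 ± SE, adjusted p in limma 0.469). Skida1, the neighbour of Mllt10 on its chromosome, read 5.62, 5.83 and 6.34 against 4.89, 5.09 and 5.06. The difference was 0.92 ± 0.17 (SE, adjusted p in limma 0.608). Like Hoxa2, Skida1 lay below the array medians of 6.58 to 6.69 on every array. Mllt10 itself differed by the 0.04 given above, and Bmi1, the Polycomb gene of the same neighbourhood, by −0.03 (95% interval −0.49 to 0.43), a sign that turned without CALM-AF10 replicate 3, among other arrays, and after quantile normalization. Sox4, a factor of lymphoid and myeloid progenitors, was 0.55 above MIG under the minimal fusion and 0.54 above it under CALM-AF10, and the fusions differed by 0.01 (−0.35 to 0.38).

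Cd27, a surface receptor of the TNF family found on early progenitors and lymphocytes, was graded across the constructs. It read 9.77, 10.36 and 9.85 under the minimal fusion, 9.38, 9.01 and 9.09 under CALM-AF10, and averaged 8.06 under MIG and 8.26 under ΔOM-LZ. The fusions differed by 0.83 ± 0.23 (log2 ± SE, 1.78-fold, adjusted p in limma 1), with groups that did not overlap. Of 14 stem and progenitor surface genes, Thy1 (10.83, 11.11 and 11.24 against 10.41, 10.55 and 10.79) was the other with separated groups (2 of 14, beside 2.14% of all genes on the higher side). Thy1 was also listed among T and NK cell genes. It was the 1 fibroblast and producer-line gene separated on the higher side as well. Of the 14, 7 had a higher and 7 a lower mean, and the median difference was 0.01 (−0.15 without CALM-AF10 replicate 2).

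Cd7, a T-cell surface protein also found on leukaemic blasts, read 6.18, 6.90 and 7.17 against 5.63, 6.09 and 5.62, a log2 difference of 0.96 ± 0.22 (SE). Chad, a cartilage matrix protein, read 8.61, 10.01 and 8.08 against 7.78, 7.22 and 7.34, and its difference of 1.46 ± 0.43 (SE) leaned on minimal fusion replicate 2, without which it was 0.90. Lmo2, an adaptor of stem cell transcription complexes, read 11.16, 11.24 and 11.15 against 10.91, 10.91 and 10.55, a difference of 0.39 ± 0.15 (SE). Over the 13 measured genes of non-HOX homeobox and self-renewal factors, 11 had a higher mean, beside 47.7% of all genes, and 5 had separated groups (Eya1, Mecom, Skida1, Nkx2-3 and Lmo2), beside 2.14%. The median was 0.32, and it was 0.07 without CALM-AF10 replicate 2 and 0.12 without minimal fusion replicate 2. That list and its members were chosen with results of these arrays known.

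**Figure D3:**
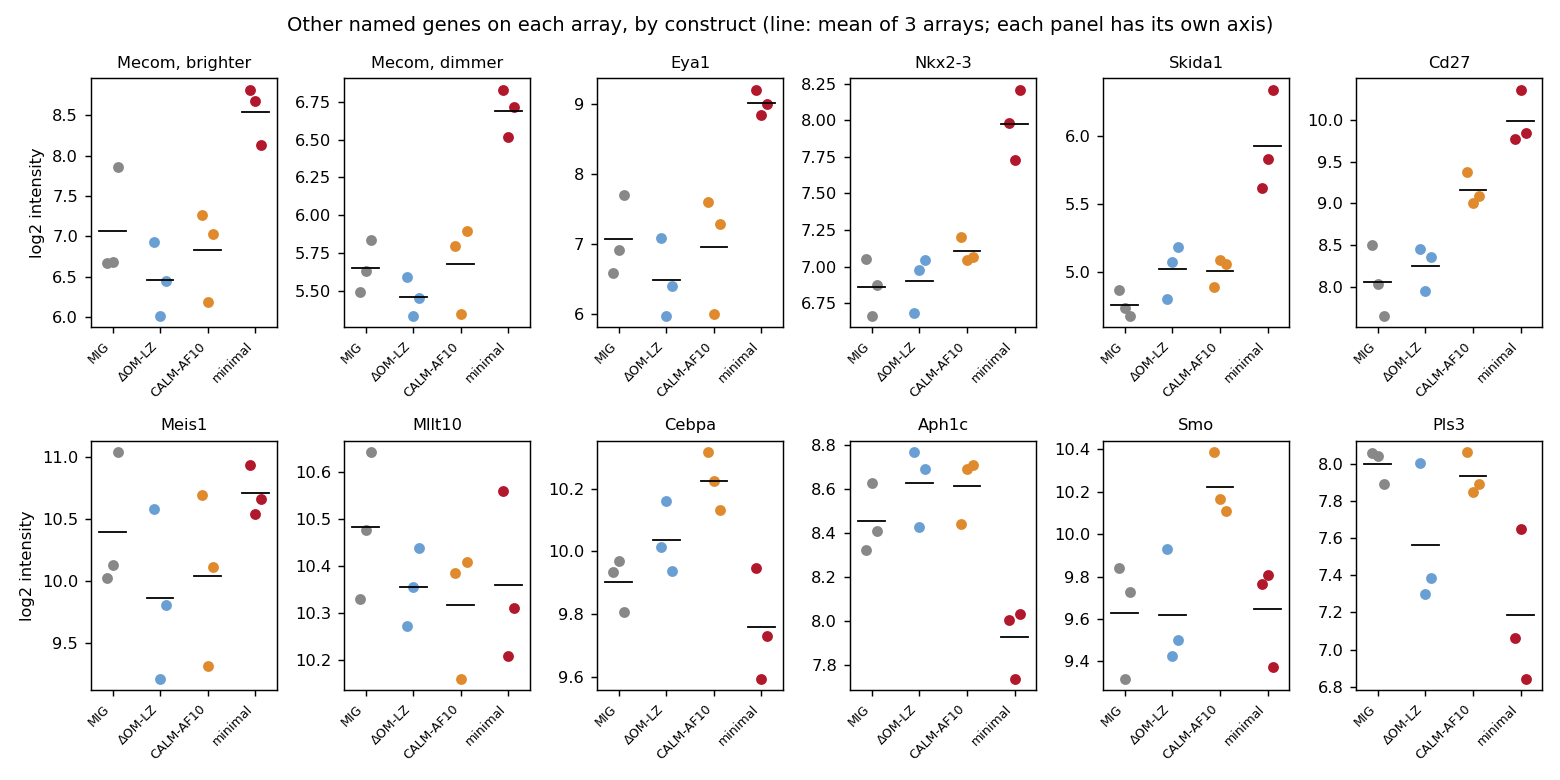
Log2 intensity of 11 genes outside the HOXA cluster on each array, by construct, with a line at the mean of 3 arrays and each panel on its own axis; Mecom has 2 panels, 1 per probe set. Minimal fusion points stand above every other point for Mecom, Eya1, Nkx2-3, Skida1 and Cd27, overlap for Meis1 and Mllt10, and lie below the CALM-AF10 points for Cebpa, Aph1c, Smo and Pls3.

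On the lower side, by the same rule (33 probe sets, 0.141% of those tested), the 10 largest lower differences were Pls3, Atp8b2, Aph1c, Tbc1d17, Klrb1f, Smo, Pik3c2a, Dhrs7, Slc43a3 and Rab11fip1, between −0.75 and −0.49 on the log2 scale, and none was called. Aph1c, a subunit of the γ-secretase protease that cuts Notch receptors, had the smallest p of them. It read 8.01, 7.74 and 8.03 against 8.44, 8.69 and 8.71, a difference of −0.69 ± 0.13 (SE, adjusted p in limma 0.701).

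Pls3, an actin-bundling protein, stood at 7.06, 7.65 and 6.84 against 8.06, 7.85 and 7.89, with the minimal fusion arrays the more scattered group. Smo, the signal-passing receptor of the Hedgehog pathway, was different in its reference levels. It read 9.77, 9.81 and 9.37 under the minimal fusion and 10.39, 10.17 and 10.11 under CALM-AF10, and since MIG averaged 9.63 it was CALM-AF10 that stood apart, 0.59 above MIG. Smo was also the 1 of the 10 in which the minimal fusion did not have the lowest mean of the 4 constructs. In 5 of the 10 (Atp8b2, Aph1c, Klrb1f, Pik3c2a and Slc43a3) the minimal fusion arrays lay below all 9 others. The rule itself had placed them below the CALM-AF10 arrays, and the share over all genes was not counted. Mir331, the gene of a microRNA, was noticed only after its values were seen: its probe set stood at 5.41, 5.33 and 5.20 against 5.77, 5.67 and 5.80 (−0.43 ± 0.09 SE, adjusted p 0.772).

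**Figure D4:**
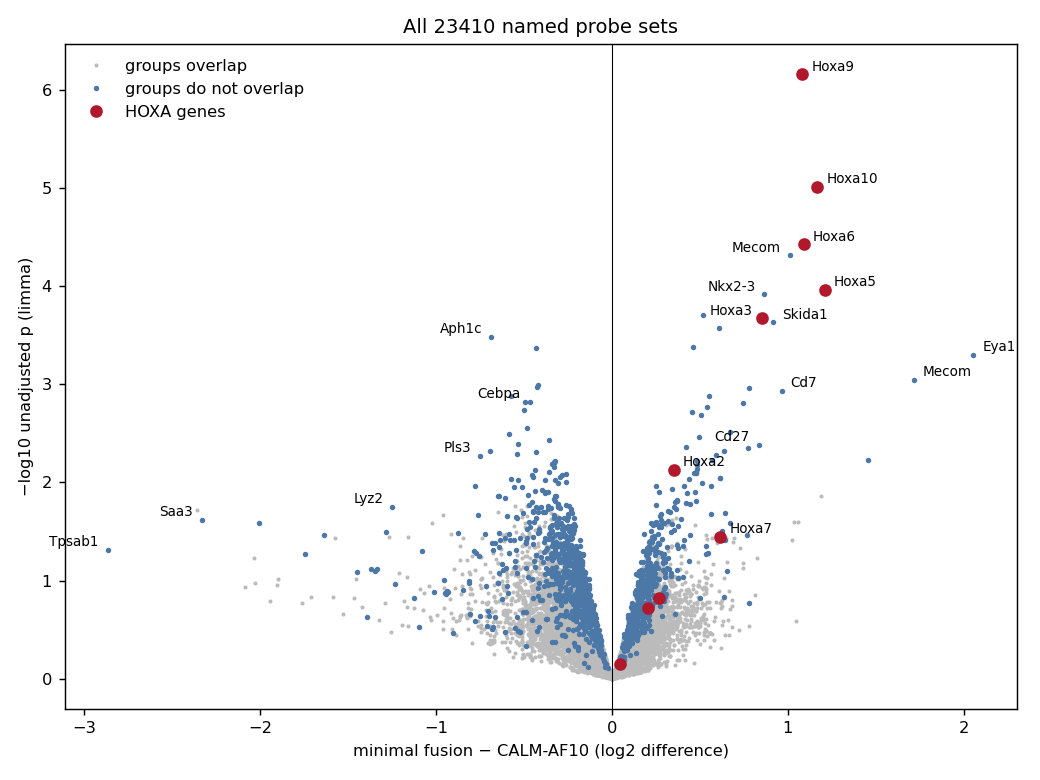
Log2 difference between the minimal fusion and CALM-AF10 (horizontal) against −log10 of the unadjusted p in limma (vertical) for 23410 probe sets, with HOXA genes in red and probe sets whose groups do not overlap in blue. Hoxa9 stands highest, Hoxa10 and Hoxa6 follow, and the most negative differences (Tpsab1 and Saa3) lie low on the vertical axis.

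Most probe sets differed little between the 2 fusions. Over the 23410 named probe sets, differences ran from −2.87 to 2.05 on the log2 scale with 88.5% within 0.25 of 0, and the median SE was 0.14, so that a typical 95% interval reached 0.32 to each side. Beyond a difference of 1 there were 13 probe sets on the higher side, 8 of them with separated groups, and 52 on the lower side, 17 with separated groups. Arrays of different fusions correlated as closely as arrays of the same fusion: r averaged 0.9883 over 9 pairs between fusions and 0.9872 over 6 pairs within them. In such mixed cultures, fewer cells of a type and less RNA per cell cannot be told apart.

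The CALM-AF10 arrays differed from one another in several list scores. Replicate 1 scored highest for mast cell and basophil genes (1.01, against −0.71 and −0.36 for replicates 2 and 3). Replicate 2 scored highest for mitosis genes (0.42, against −0.53 and −0.49) and replicate 3 for inflammatory cytokine genes (0.75, against −0.04 and −0.53). The minimal fusion arrays covered narrower ranges, −1.22 to −0.42, −0.01 to 0.45 and −1.07 to −0.42 on those lists. On each of those lists the minimal fusion replicates ranked in the same order as the CALM-AF10 replicates of the same number. On others, such as HOXA and p53 targets, the orders differed. Whether a replicate number marks a shared batch was not tested. HOXA scores were 0.50, 0.69 and 0.72 under the minimal fusion against −0.02, −0.18 and 0.04 under CALM-AF10, without overlap. For any 1 list, full separation of 3 arrays from 3 has an exact permutation p of 0.1. Of the 32 lists scored, 3 others did not overlap either. They were the non-HOX homeobox and self-renewal genes (0.49 to 0.53 against −0.27 to 0.11), monocyte and macrophage genes (−0.59 to −0.40 against −0.27 to 0.14) and genes induced by low oxygen outside glycolysis (−0.32 to −0.24 against −0.12 to −0.0032). Of the 17 low-oxygen genes 13 had a lower mean, with a median log2 difference of −0.17, and 3 had separated groups (P4ha1, Bnip3l and Bnip3), beside 3.55% of all genes on the lower side. The part of these list levels in the HOXA difference was not tested.

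Genes of dividing cells had higher means under the minimal fusion than under CALM-AF10, without separating the arrays. All 20 mitosis genes measured had a higher mean (median log2 difference 0.40; without CALM-AF10 replicate 1 the mean of Aurka was lower), and so did all 21 DNA replication genes (median 0.28; 1 was lower without CALM-AF10 replicate 1, 4 without replicate 3 and 3 without minimal fusion replicate 2). In neither list was a gene called or a group separated. The mitosis scores of the minimal fusion (−0.01, 0.45 and 0.15) overlapped those of MIG (0.55, −0.12 and 0.08), and CALM-AF10 scored −0.53, 0.42 and −0.49. Mki67, the proliferation antigen, read 11.39, 11.48 and 11.42 against 10.82, 11.45 and 10.84, so that CALM-AF10 replicate 2 lay among the minimal fusion arrays. Cenpe, a kinetochore motor, showed the same arrangement, at 9.24, 9.60 and 9.24 against 8.49, 9.50 and 8.63. The medians moved with single arrays: for mitosis to 0.69 without CALM-AF10 replicate 2 and to 0.24 without replicate 1, and for DNA replication to 0.50 without replicate 2, 0.07 without replicate 3 and 0.16 without minimal fusion replicate 2.

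Genes of late, mature myeloid cells mostly had lower means. Of 17 late neutrophil genes 15 had a lower mean under the minimal fusion, with a median of −0.37, and in 5 the groups did not overlap (Ly6g, Retnlg, Stfa2, Ifitm6 and Mmp8), where the share over all genes was 3.55% on the lower side. None was called. Stfa2, a stefin protease inhibitor of neutrophils, read 5.82, 6.75 and 7.23 against 7.27, 7.54 and 8.85 (−1.28 ± 0.52 SE). Lcn2, the iron-siderophore carrier of neutrophil granules, read 12.10, 11.27 and 11.48 against 12.44, 12.01 and 13.28, and there 1 minimal fusion array overlapped the CALM-AF10 range. Without CALM-AF10 replicate 1, whose own late neutrophil score of −0.56 lay among those of the minimal fusion (−0.79 to −0.34), the median was −0.74, and without minimal fusion replicate 3 it was −0.64.

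Primary granule genes, which are made earlier in the same lineage, did not follow them: 6 of 9 had a higher mean, the median was 0.18 and none had separated groups. Elane, neutrophil elastase, read 11.89, 13.16 and 12.92 against 10.06, 13.16 and 11.62, a difference of 1.04 ± 0.88 (log2 ± SE) that was 0.27 without CALM-AF10 replicate 1 and 1.82 without replicate 2. Among 18 monocyte and macrophage genes 14 were lower, the median was −0.35 (−0.11 without CALM-AF10 replicate 3), and 2 had separated groups, Lyz2 and Csf1r (3.55% of all genes on the lower side). Lyz2, the lysozyme of macrophages and neutrophils, read 11.15, 10.52 and 11.01 against 12.02, 11.65 and 12.75, a difference of −1.25 ± 0.45 (SE, adjusted p in limma 1). Csf1r, the macrophage growth factor receptor, read 8.48, 7.94 and 8.73 against 8.73, 9.16 and 10.10, where the closest arrays nearly met.

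Of 15 myeloid transcription factors 12 had a lower mean, the median was −0.21 (−0.32 without minimal fusion replicate 3, −0.09 without replicate 2) and Cebpa was the 1 of 15 with separated groups, beside 3.55% of all genes on the lower side. Cebpa, the factor that commits progenitors to granulocytes, read 9.95, 9.59 and 9.73 against 10.32, 10.22 and 10.13, and MIG averaged 9.90. The difference between the fusions was −0.47 ± 0.11 (log2 ± SE, adjusted p in limma 1), with CALM-AF10 0.32 above MIG and the minimal fusion at −0.15 beside it. Irf8, a monocyte and dendritic cell factor, pointed the other way on average (0.47, 95% interval −0.45 to 1.39), with CALM-AF10 replicate 2 at 9.08 and the other 2 at 7.66 and 7.72.

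Mast cell genes held the most negative difference among the named probe sets, with a wide spread. Tpsab1, a mast cell tryptase, read 6.80, 6.48 and 6.51 against 11.65, 7.71 and 9.03, a difference of −2.87 ± 1.29 (log2 ± SE), which was −1.77 without CALM-AF10 replicate 1. Prss34, a basophil protease, went against it at 10.617, 9.544 and 10.260 compared with 9.684, 8.999 and 8.661 (1.03 ± 0.44 SE). Of 13 mast cell and basophil genes 11 were lower, with a median of −0.50, which was −0.29 without CALM-AF10 replicate 1 and −0.76 without replicate 3, and 3 had separated groups (Cma1, Mcpt4 and Tpsab1), beside 3.55% of all genes on the lower side. Of 12 megakaryocyte genes 9 were lower (median −0.28, from −0.45 without CALM-AF10 replicate 2 to −0.18 without replicate 1). The platelet chemokine Ppbp had the largest difference, at 7.98, 7.52 and 7.03 against 9.93, 7.76 and 9.24, with overlapping groups. Of the 12, 3 had separated groups (Slc6a4, Treml1 and Pf4), beside 3.55% of all genes on the lower side.

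All 19 inflammatory cytokine and acute-phase genes had a lower mean, with a median of −0.39 and separated groups for Ccl9, Cxcl3 and Saa3 (3 of 19, beside 3.55% of all genes on the lower side), and none was called. Saa3, an acute-phase protein of myeloid cells, read 8.44, 6.88 and 8.05 against 9.69, 9.06 and 11.62 (−2.33 ± 0.89 SE, adjusted p in limma 1). Cxcl3, a neutrophil chemokine, read 6.13, 5.90 and 6.31 against 7.19, 6.47 and 9.03. Both leaned on CALM-AF10 replicate 3, the array with the highest inflammatory score: without it their differences were −1.59 and −0.72, and the list's median was −0.24 with 15 of 19 lower, a count also reached without minimal fusion replicate 2. Of 15 p53 target genes 13 were lower (median −0.39, from −0.55 without CALM-AF10 replicate 2 to −0.22 without replicate 3) and 1 of 15 had separated groups, beside 3.55% of all genes on the lower side. This was Aen, a nuclease induced by p53, at 8.42, 8.41 and 8.25 against 8.69, 8.47 and 8.70.

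The machinery that AF10 works with differed little between the fusions. Of 17 genes of the DOT1L and AF10 complexes 10 had a higher and 7 a lower mean with a median difference of 0.01, and none was called. Dot1l itself averaged 10.20 (SD 0.03) against 10.12 (SD 0.10), a difference of 0.09 (95% interval −0.20 to 0.38). Aff4, a scaffold of the elongation complex, was the lowest of them at −0.31, with overlapping groups.

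**Figure D5:**
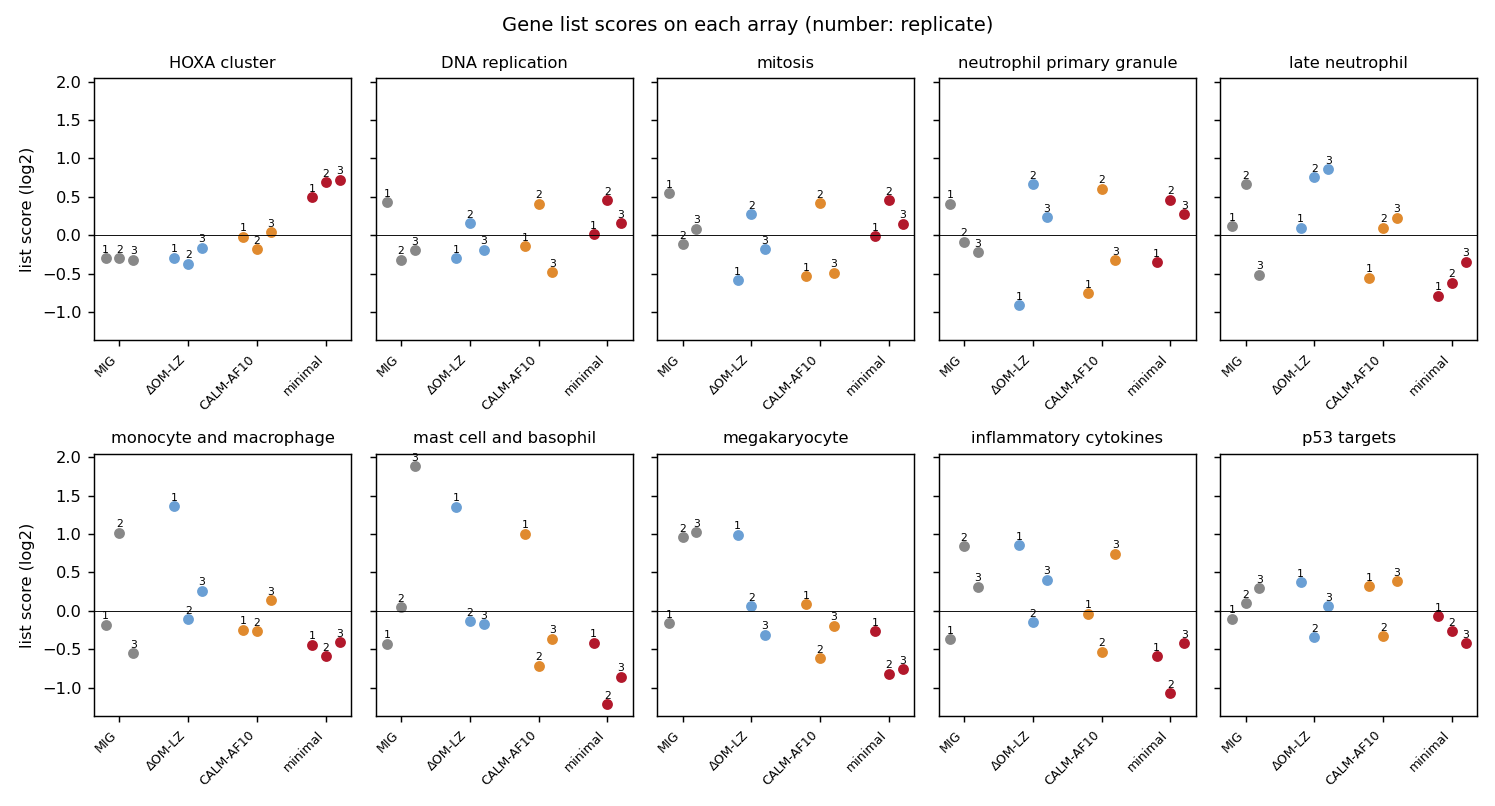
Score of 10 gene lists on each array (mean over members of the log2 value minus its 12-array mean), by construct, with the replicate number beside each point. HOXA scores run from 0.50 to 0.72 under the minimal fusion and from −0.18 to 0.04 under CALM-AF10, and of the 9 other lists shown the groups are apart for monocyte and macrophage genes alone.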

How the data were processed

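The values are log2 intensities per probe set as deposited by the authors, from Affymetrix arrays with sense-strand labelling of total RNA. The submitters' processing notes name Affymetrix Expression Console. Its version is not given in these sources, and neither is how probes were summarized and arrays scaled, and nothing was renormalized. Probe sets were named from the platform annotation, and 21698 of the 21789 with 1 symbol matched a RefSeq gene by gene ID. A gene with several probe sets is shown by its brightest. limma 3.58.1 in R 4.3.3 (lmFit, eBayes, two-sided) fitted 1 mean per construct over 12 arrays, with 8 residual degrees of freedom. Benjamini-Hochberg adjustment was over 23410 named probe sets. On simulated data with independent noise, the fit called 77% of log2 differences of 1 and 96% of those of 2. Of its 184 calls, 11 were false. Swings shared by many genes of an array were not simulated. The number of arrays, 3 a group, limits the precision. Nothing says what a replicate number shares, so no block entered, and p-values measure the spread between samples as labelled. Named were genes past 0.05, the 10 largest separated differences each way with unadjusted p under 0.01, the HOXA and cofactor lists, 9 regulators, and the extremes of each list described. Members and lists were chosen with earlier results of these data known. Alternatives were centring, quantile normalization, trend with robust variance, fewer arrays or probe sets, a dim filter, a replicate block, leaving out each array and, for several probe sets, their mean.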

Additional observations from a re-analysis of the deposited data

Results flagged for a closer look

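Of the 12146 probe sets without a gene symbol, which stood outside the comparisons above, 5 were called higher and none lower under the minimal fusion when they were tested apart with limma (smallest adjusted p 0.0211), while 354 had an unadjusted p under 0.05. Their log2 differences over CALM-AF10 ran from 1.29 to 2.42. They carry no gene name here, and what they read was not analysed.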

How the results depend on the processing

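The count of 1 called probe set, Hoxa9, kept its value under median centring, quantile normalization, trend with robust variance, probe sets of exactly 1 symbol and a filter on dim probe sets, with adjusted p in limma from 0.00699 to 0.0492. It was 0 with only the 6 compared arrays, where the adjusted p was 0.274, and 3 when the unnamed probe sets entered, of which 2 were unnamed and 1 was Hoxa9. Leaving out 1 array in turn gave 0 to 1. Same-numbered arrays of the 2 fusions deviated from their group means with r = 0.72, 0.39 and −0.20. Arrays of unlike number were not compared, and whether a replicate number marks a shared batch was not tested. With the replicate number as a block, the count was 0 over 12 arrays and 1 over the 6 compared arrays, where the 1 was Tph1, lower, and Hoxa9 had an adjusted p of 0.238 (0.0767 over 12). The mean of both Mecom probe sets was not called either. The cause of these moves was not tested, beyond the smaller number of arrays or larger number of probe sets that some settings have by construction.

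Of 97 probe sets followed, 74 kept their sign in every alternative run and 23 did not. Quantile normalization turned Pbx2 to 0.0474 and Bmi1 to 0.0217. Leaving out 1 array turned the sign of all 23, with these ranges of the log2 difference. HOX genes and partners were Hoxa13 (−0.0392 to 0.13), Hoxc13 (−0.15 to 0.0197), Pbx2 (−0.11 to 0.066), Pbx3 (−0.20 to 0.0442), Pbx4 (−0.17 to 0.0562) and Pknox2 (−0.32 to 0.12). Other regulators were Mllt10 (−0.0586 to 0.12), Bmi1 (−0.18 to 0.19), Prdm16 (−0.10 to 0.0467), Sox4 (−0.099 to 0.22) and Leo1 (−0.022 to 0.19). Cell type and cycle genes were Olfm4 (−0.0747 to 0.17), Padi4 (−0.0784 to 0.0926), Cx3cr1 (−0.00506 to 0.27), Marco (−0.0245 to 0.19), Mcpt8 (−0.23 to 0.26), Clec1b (−0.000421 to 0.12), Vwf (−0.0303 to 0.19), Mcm6 (−0.16 to 0.18), Rfc4 (−0.0551 to 0.22), Aurka (−0.00537 to 0.70), Cxcl1 (−0.0959 to 0.0948) and Ccl4 (−0.27 to 0.25). No scaling moved the median of all probe sets by more than 0.1.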
